A study of Mus musculus with 9 samples.

Results

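The genes described here were S100a8, S100a9, Saa3, Serpina3n, Hp, Csf3r and Retnlg, 7 of the 23747 genes in each expression table, and were taken by name as genes of the acute phase and of neutrophils. Their transcripts were counted in single nuclei (sNuc-seq) from hearts of young adult C57BL/6 mice. The study's text places the tissue taken below the level of the ligature, so levels over all nuclei of a mouse are those of this tissue and not of the entire heart. Each nucleus carried its own barcode, and each captured transcript a unique molecular identifier (UMI). Sham mice (n = 3) were gavaged with vehicle for 7 days and then had the operation with the needle passed but no ligature. I/R mice (n = 3) had the same vehicle course, after which the left anterior descending artery was tied for 30 min and reperfused for 24 h. SBP mice (n = 3) took Shexiang Baoxin Pill, a Chinese herbal medicine written as MUSKARDIA in the labels, for 7 days ahead of the same 30 min of ischemia and 24 h of reperfusion. SBP was therefore tested as a pretreatment, at a single dose and a single time, and the sham mice were not given SBP.

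Neutrophils are the first blood cells to enter reperfused myocardium. S100a8 and S100a9 pair as calprotectin, the main protein of the neutrophil cytosol, Retnlg is a resistin-like secreted protein of neutrophil precursors and neutrophils, and Csf3r is the receptor for granulocyte colony-stimulating factor (G-CSF). Saa3 and Hp (haptoglobin, which binds free haemoglobin) are acute phase proteins, and Serpina3n is a secreted inhibitor of serine proteases of granules. Acute phase genes are induced in liver and other tissues through IL-6, STAT3, IL-1 and C/EBP factors.

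The 9 libraries held 4576 to 6418 nuclei, 10329520 to 18205985 UMIs, and a median of 1540 to 2031 UMIs per nucleus. Nuclei were clustered without the 7 genes and named from other markers as cardiomyocytes (10555 nuclei), endothelial cells (12579), fibroblasts (14157) and myeloid cells (9210), of which 227 were neutrophil-like. A name means only that the nuclei carried markers of that type. I/R replicate 2 stood apart from the other 8 libraries. Its level over all nuclei, in CPM (UMIs scaled to a common library size) after TMM scaling, was 68.2 times that of the highest other mouse for Saa3, 8.18 times for Hp, 5.83 times for Retnlg, 5.54 times for S100a8 and 3.52 times for S100a9. For Serpina3n the ratio was 1.20 and for Csf3r 0.850. The tests of the 7 genes and the counts of the gene lists are therefore also given without this mouse, whereas UMI shares and levels per nucleus include it unless stated.

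Promoter sequences are shown for the 4 genes in which a searched motif was found. These were the 250 bases before the RefSeq start (build GRCm38.p6), read in the direction of the gene. Capitals mark a C/EBP half-palindrome, TTNNGCAA on either strand, in S100a9, Retnlg and Saa3, and the TATA box TATAAA in S100a8. The windows were chr3:90668821-90669070 (plus strand) for S100a8, chr3:90695722-90695971 (minus strand) for S100a9, chr16:48872358-48872607 (plus strand) for Retnlg and chr7:46715677-46715926 (minus strand) for Saa3.
S100a8: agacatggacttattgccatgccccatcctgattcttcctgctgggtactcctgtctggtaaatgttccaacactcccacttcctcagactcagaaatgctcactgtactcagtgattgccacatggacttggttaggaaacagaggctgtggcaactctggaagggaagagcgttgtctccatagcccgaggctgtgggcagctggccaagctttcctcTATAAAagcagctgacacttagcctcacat
S100a9: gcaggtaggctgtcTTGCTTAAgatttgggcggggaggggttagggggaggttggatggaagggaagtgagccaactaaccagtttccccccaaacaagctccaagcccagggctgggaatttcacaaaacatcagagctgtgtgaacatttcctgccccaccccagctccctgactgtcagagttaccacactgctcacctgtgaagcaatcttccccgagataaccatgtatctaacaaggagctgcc
Retnlg: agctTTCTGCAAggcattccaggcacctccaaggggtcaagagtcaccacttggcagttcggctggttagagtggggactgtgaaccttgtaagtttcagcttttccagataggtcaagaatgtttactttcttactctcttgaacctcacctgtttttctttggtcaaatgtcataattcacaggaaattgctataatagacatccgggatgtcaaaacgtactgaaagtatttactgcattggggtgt
Saa3: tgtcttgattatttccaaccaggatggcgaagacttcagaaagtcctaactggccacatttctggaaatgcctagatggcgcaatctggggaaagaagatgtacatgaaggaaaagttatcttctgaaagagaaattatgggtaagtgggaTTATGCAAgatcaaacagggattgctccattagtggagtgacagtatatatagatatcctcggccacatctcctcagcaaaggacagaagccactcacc
The C/EBP letters began 99 bases before the start in Saa3, 236 bases in S100a9 (on the opposite strand) and 246 bases in Retnlg. In S100a8 the TATA box began 30 bases before the start. Of 32851 RefSeq promoters of the same length, 9.564% held the C/EBP letters and 12.37% TATAAA, so each match is a description of these windows only. TTCNNNGAA, a STAT motif present in 7.02% of promoters, was in none of the 6 windows read, which were those of all of the genes but Hp, and neither Csf3r nor Serpina3n held any of the motifs.

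The first question was how the 7 genes differed between reperfused and sham hearts. Summed over all nuclei of a mouse, 3 of the 7 rose in I/R against sham, Csf3r, Hp and Serpina3n, and none fell. Calls were made with limma on log2(CPM + 1), with p adjusted over all genes by Benjamini-Hochberg and a gene called at 0.05 or below where its log2 fold change was also beyond 0.25. Of the 16044 genes tested, 5.98% were called higher and 5.39% lower. In 6 of the 7, all but Retnlg, every I/R mouse lay above every sham mouse, as for 14.6% of the genes tested. Which sham or I/R mouse was left out moved the count of 3, to 1 (Csf3r) without sham replicate 3 and to 6 without I/R replicate 1. The shares of all genes called, here and below, come from fits of all 9 mice. They were not counted for fits without a mouse, so those counts have no share to be set against. In sums over all nuclei, more cells of a type and more RNA per cell cannot be told apart.

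**Figure D1:**
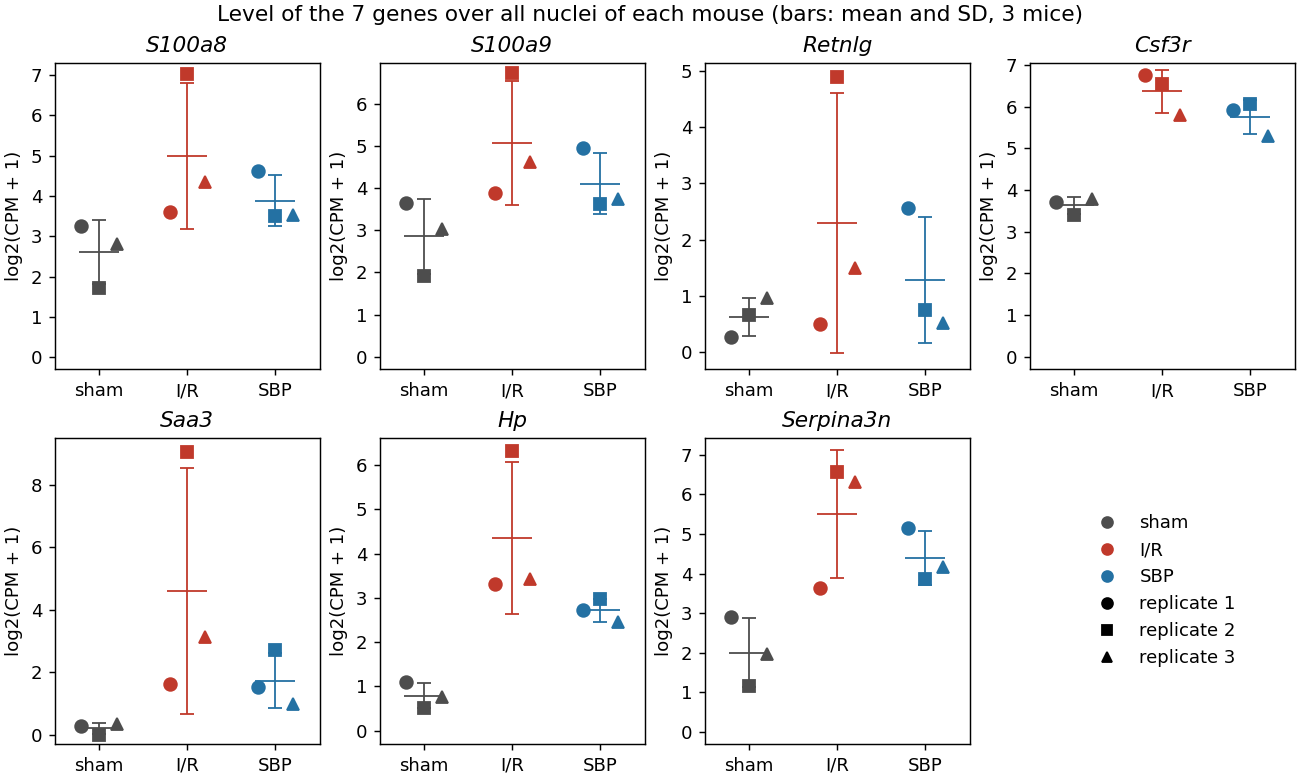
Level of each gene, as log2(CPM + 1) of the UMIs summed over all nuclei of a mouse, in sham, I/R and SBP mice, with a marker shape per replicate number and bars for mean and SD (3 mice). I/R replicate 2 (red square) is the highest of the 9 mice for 6 genes, whereas for Csf3r all I/R and SBP mice lie above all sham mice.

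S100a8 stood at 8.62, 2.31 and 6.05 CPM in the sham mice, 11.1, 130 and 19.4 in the I/R mice and 23.4, 10.4 and 10.6 in the SBP mice (replicates 1, 2 and 3 in each). The I/R range began just above the highest sham mouse, and the SBP mice overlapped the lower I/R mice. The log2 fold change of I/R against sham was 2.39 (SE 0.77, adjusted p = 0.0744, limma), and without I/R replicate 2 it was 1.37 (adjusted p = 0.151).
S100a9 was at 11.6, 2.75 and 7.12 CPM in sham, 13.7, 105 and 23.6 in I/R and 29.9, 11.4 and 12.4 in SBP. Its order over the mice was close to that of S100a8, with sham replicate 2 the lowest and I/R replicate 2 the highest. The difference of I/R from sham, 2.21 on the log2 scale (SE 0.70, adjusted p = 0.0700, limma), was likewise not called, and was 1.39 without I/R replicate 2.
Retnlg had few UMIs, with 2, 8 and 15 UMIs in the sham hearts, 8, 417 and 32 in the I/R hearts and 65, 12 and 6 in the SBP hearts. Only I/R replicate 2 was far from the rest, and the groups overlapped. The log2 fold change was 1.66 (SE 0.96, adjusted p = 0.288, limma) with that mouse and 0.37 without it.

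Csf3r had the smallest standard error of the 7 genes. It stood at 12.0, 9.55 and 12.8 CPM in sham, 108, 91.7 and 54.6 in I/R and 59.8, 65.6 and 38.3 in SBP. The lowest reperfused mouse, SBP replicate 3, was well above the highest sham mouse, and here I/R replicate 2 was not the highest. Csf3r rose by a log2 fold change of 2.74 in I/R (SE 0.27, adjusted p = 0.000872, limma) and of 2.13 in SBP against sham (adjusted p = 0.00645). Without I/R replicate 2 the first was 2.65 (adjusted p = 0.00499).

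Among the acute phase genes, Saa3 had 2, 0 and 4 UMIs in the sham hearts, 40, 7675 and 136 in the I/R hearts and 25, 96 and 13 in the SBP hearts. All 6 reperfused hearts lay above the sham hearts, and 1 heart held nearly all of the UMIs. With so few UMIs in sham, the size of its fold change depends on the pseudocount. The log2 fold change of 4.40 (SE 1.49) was not called (adjusted p = 0.0860, limma), nor was the 2.17 left without that mouse (adjusted p = 0.0578).
Hp stood at 1.14, 0.434 and 0.693 CPM in sham, 8.94, 79.6 and 9.72 in I/R and 5.60, 6.89 and 4.53 in SBP. The 3 groups did not overlap, with SBP between sham and I/R. Hp rose by 3.56 in I/R on the log2 scale (SE 0.66, adjusted p = 0.0127, limma), and by 2.57 without I/R replicate 2 (adjusted p = 0.00203).
Serpina3n stood at 6.44, 1.23 and 2.90 CPM in sham, 11.4, 94.1 and 78.2 in I/R and 34.8, 13.5 and 17.0 in SBP. Here I/R replicates 2 and 3 were both high, and I/R replicate 1 lay below every SBP mouse. Serpina3n rose by 3.50 on the log2 scale (SE 0.73, adjusted p = 0.0187, limma), but without I/R replicate 2 the 2.96 was not called (adjusted p = 0.0656). Serpina3n belongs to a family of similar neighbouring copies, so reads could be split between copies and its UMI numbers are uncertain to that degree, which was not measured.

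The same comparison was then made within cell types, on the UMIs summed over the nuclei of a type. Within a type, other kinds of nuclei and more RNA per nucleus cannot be told apart either. Among myeloid nuclei, a macrophage-like subcluster made up 10.6% of all nuclei in sham and 2.37% in I/R (means of 3 mice). Another macrophage-like subcluster was at 0.0428% and 5.89%, the monocyte-like subcluster at 0.103% and 6.09%, and an unnamed subcluster at 0.0760% and 9.86%. The I/R mice were widely spread in these, with SDs of 4.37, 7.22 and 11.8 in the same order. Csf3r was called higher in I/R in the sums of all 4 main types, Hp and Serpina3n in each of them but cardiomyocytes, and S100a9 in myeloid cells. The counts were 1 of 5 genes tested in cardiomyocytes (0.666% of all genes tested there were called higher), 3 of 6 in endothelial cells (1.62%), 3 of 6 in fibroblasts (6.43%) and 4 of 6 in myeloid cells (10.5%). S100a8 was called in none, and Retnlg passed the filter on low values in none of the 4 types. Saa3 passed it in 3 types and was called in none, with adjusted p from 0.0654 in fibroblasts to 0.156 in endothelial cells (limma). Without I/R replicate 2, Csf3r stayed called in endothelial cells, fibroblasts and myeloid cells. It was then not called in cardiomyocytes (adjusted p = 0.0568, limma), where I/R replicate 2, at 13.4 CPM, lay between the other I/R mice (14.3 and 11.9). Hp also stayed called in endothelial cells, fibroblasts and myeloid cells. S100a9 in myeloid cells (adjusted p = 0.0557) and Serpina3n in fibroblasts (0.0768) and endothelial cells (0.133) did not, and Serpina3n in myeloid cells fell below the filter. Other mice moved these counts too. In endothelial cells 1 gene, Csf3r, was called without sham replicate 2, sham replicate 3, SBP replicate 2 or SBP replicate 3. In myeloid cells the count was 1 (Csf3r) without sham replicate 2, 2 without sham replicate 3 or I/R replicate 3 and 6 without I/R replicate 1. In cardiomyocytes it was 0 without sham replicate 3, 2 without SBP replicate 1 and 3 without I/R replicate 1. With means of the deposited log values in place of summed UMIs, Csf3r was the 1 gene called over all nuclei and in endothelial cells, fibroblasts and myeloid cells, and none was called in cardiomyocytes. Those calls rested on the adjusted p alone, without the fold change threshold.

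Free RNA can give UMIs in nuclei that do not make a gene. Its level was not measured, so its part in these calls was not tested, and the levels are given here on 3 scales. Csf3r gave 1.20 UMIs per 100 cardiomyocyte nuclei, 1.13 per 100 endothelial nuclei and 1.16 per 100 fibroblast nuclei in sham. In I/R it gave 7.98, 9.31 and 8.30, and in SBP 8.60, 9.29 and 7.78. In myeloid nuclei other than the neutrophil-like ones it was at 14.9, 61.2 and 37.1 in the 3 groups. Per nucleus the first 3 types were thus close to each other in each group, with other myeloid nuclei well above them. Mean CPM of the I/R mice was 13.2 in cardiomyocytes, 56.7 in endothelial cells and 31.8 in fibroblasts. The shares of I/R nuclei with a Csf3r UMI were 5.75%, 5.98% and 5.84% in the same order and 33.5% in other myeloid nuclei (means of 3 mice). After thinning to 1000 UMIs they were 1.64%, 4.08%, 2.98% and 20.2%. In I/R the first 3 types thus kept the same order on each scale, but the gaps between them depended on the scale. Per nucleus that order was not kept in sham or SBP, so none is read. Thinning leaves out shallower nuclei, and kept 99.8% of the cardiomyocyte, 74.6% of the endothelial, 91.4% of the fibroblast and 99.4% of the other myeloid nuclei of I/R mice.
For S100a9 the order of the first 3 types itself depended on the scale, and none is read. Per 100 nuclei of I/R mice it gave 10.3 UMIs in cardiomyocytes, 9.94 in endothelial cells, 10.2 in fibroblasts and 12.1 in other myeloid nuclei, against 242 in neutrophil-like nuclei, and without I/R replicate 2 it gave 5.20, 3.93, 4.27 and 4.69, against 171. Its thinned shares were 2.72%, 5.52%, 4.57% and 5.59% for the first 4, and its mean CPM was 19.2 in cardiomyocytes, 62.2 in endothelial cells and 42.2 in fibroblasts.
Serpina3n was at 15.4 UMIs per 100 nuclei in cardiomyocytes, 9.28 in endothelial cells, 37.4 in fibroblasts and 5.08 in other myeloid nuclei of I/R mice, and at 11.0, 6.86, 31.7 and 2.41 without I/R replicate 2. In sham it was at 0.165, 0.311, 1.92 and 0.221. The thinned shares were 2.83%, 5.20%, 12.3% and 2.96%, and mean CPM was 26.5, 55.0 and 147 in the first 3 types. Fibroblasts were the highest of these on each scale, and the order of the others is not read.
Hp was at 5.32, 5.99, 9.49 and 12.7 UMIs per 100 nuclei in the same order, and at 2.19, 1.65, 3.93 and 2.86 without I/R replicate 2. Its thinned shares were 1.59%, 3.63%, 3.82% and 5.99%, and mean CPM was 10.06, 38.2 and 39.1 in the first 3. Per nucleus, other myeloid nuclei were the highest of these with all 3 I/R mice and fibroblasts without replicate 2.

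In myeloid cells Csf3r stood at 106, 83.8 and 92.3 CPM in sham, 366.5, 368 and 249 in I/R and 201, 259 and 194 in SBP. Sham was clear of both reperfused groups, and the highest SBP mouse was just above the lowest I/R mouse. The rise in I/R was 1.78 on the log2 scale (SE 0.19, adjusted p = 0.000111, limma), and 1.69 without I/R replicate 2.
S100a9 in myeloid cells was at 14.1, 3.61 and 8.93 CPM in sham, 22.8, 232 and 81.6 in I/R and 50.7, 18.3 and 32.3 in SBP. It rose by 3.12 (SE 0.80, adjusted p = 0.0306, limma). When the neutrophil-like nuclei were left out, the S100a9 rise was 2.30 and no longer called (adjusted p = 0.0696, limma). That of Csf3r was then 1.35 and still called (adjusted p = 0.0370). Whether the genes differed in this was not tested.
In fibroblasts Serpina3n was at 18.4, 4.32 and 11.5 CPM in sham, 32.3, 203 and 206 in I/R and 69.2, 34.5 and 36.3 in SBP. It rose by 3.36 (SE 0.74, adjusted p = 0.0224, limma), and every SBP mouse lay above I/R replicate 1 and below the other I/R mice.
Hp in fibroblasts stood at 2.24, 0 and 0.697 CPM in sham, 13.8, 88.0 and 15.7 in I/R and 5.60, 5.00 and 4.89 in SBP, 3 groups without overlap. Its rise in I/R was 3.99 (SE 0.64, adjusted p = 0.00348, limma).

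Whether the I/R effect differed between 2 cell types was tested as a difference within each mouse, in 6 pairs of types. Of 33 differences over the genes tested in both types, 2 were called, both for S100a9, and none between cardiomyocytes and endothelial cells (0.0178% of all genes called), fibroblasts (2.10%) or myeloid cells (4.97%), or between endothelial cells and fibroblasts (0.507%). Its I/R effect was smaller in endothelial cells than in myeloid cells by a log2 value of -1.28 (SE 0.28, adjusted p = 0.0427, limma; 3.25% of genes called). In fibroblasts it was smaller than in myeloid cells by -1.52 (SE 0.37, adjusted p = 0.0365; 7.10% of genes called). Neither was called without I/R replicate 2, nor without sham replicate 2, sham replicate 3, I/R replicate 3 or SBP replicate 1, nor without TMM scaling, and 4 differences were called without I/R replicate 1.

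Where the transcripts lay was read among the 4 main types, from CPM for the order in each mouse and from UMIs per 100 nuclei. Csf3r was highest in myeloid cells, which exceeded endothelial cells in CPM in 9 of 9 mice. In I/R mice, myeloid nuclei other than the neutrophil-like ones gave 61.7% of all Csf3r UMIs (Wilson 95% interval 60.3% to 63.1%, counting error only), and the neutrophil-like nuclei gave 13.3% (12.3% to 14.3%) although they were 0.974% of the nuclei. Serpina3n was highest of the 4 types in fibroblasts, which exceeded endothelial cells in CPM in 9 of 9 mice and held 58.1% of its UMIs in I/R (56.3% to 59.9%). Leaving out I/R replicate 2 gave shares of 61.9%, 12.0% and 62.7%. The smaller clusters were not compared.
For S100a8 the order of myeloid over endothelial cells held in only 4 of 9 mice, and for S100a9 in 5 of 9. Endothelial cells were the higher in every sham mouse for both genes. Myeloid cells were the higher in every I/R mouse for S100a9, and the I/R mice were mixed for S100a8. The order thus went with the group, so none is read over the 9 mice, and these levels were not tested between types. Hp was higher in myeloid than in endothelial cells in 8 of 9 mice, with no steady order of endothelial cells and fibroblasts (5 of 9).

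**Figure D2:**
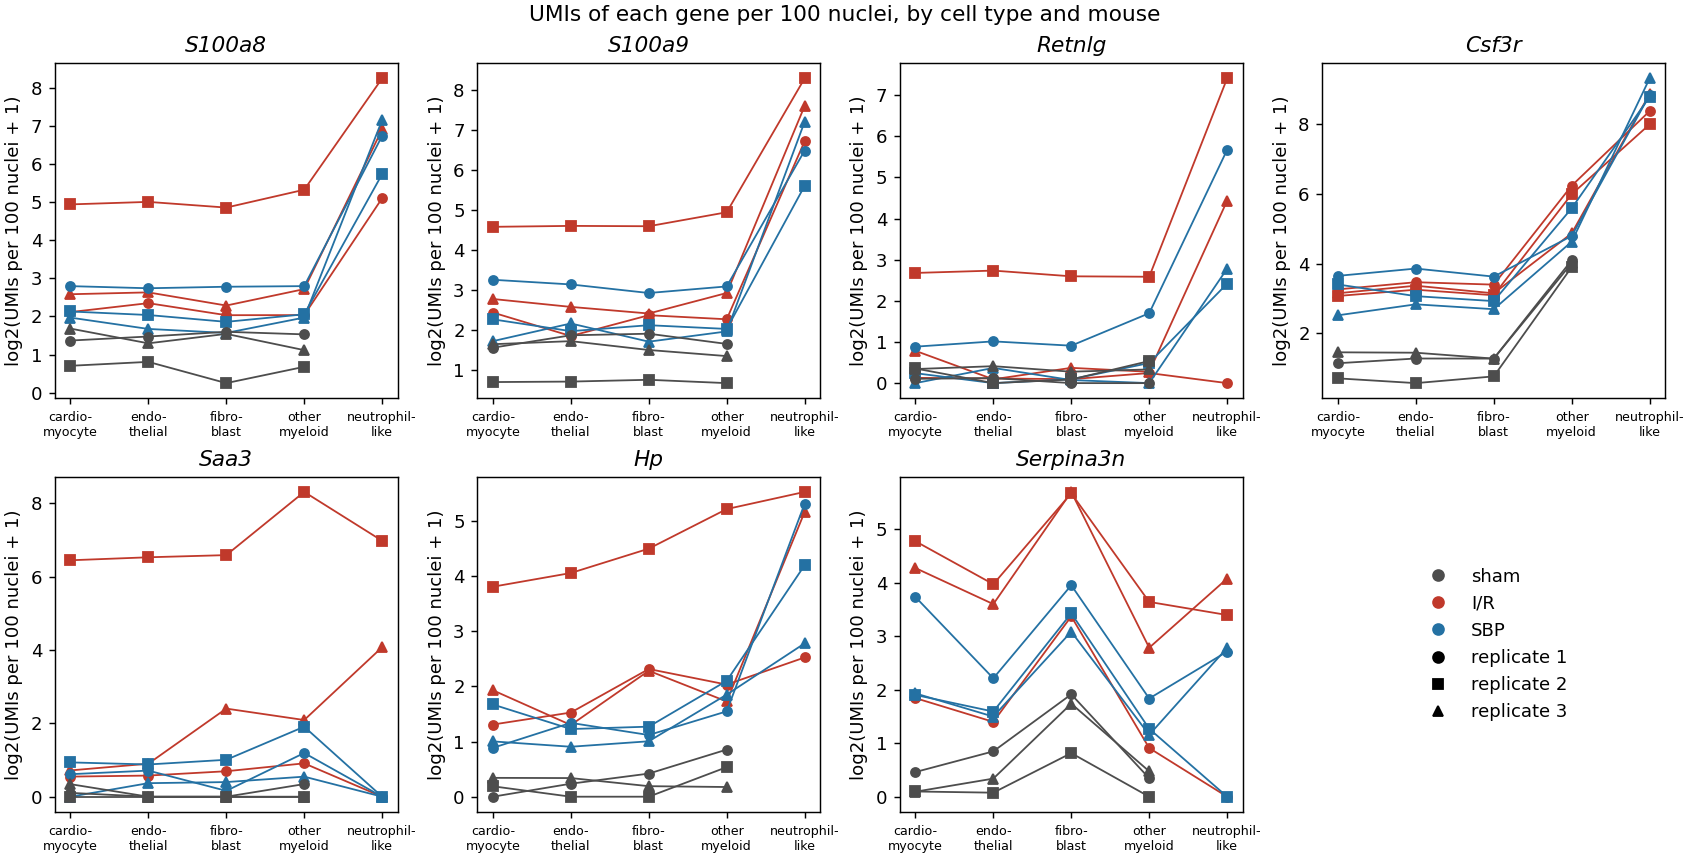
UMIs of each gene per 100 nuclei, as log2 of the value plus 1, in 5 kinds of nuclei, with a line per mouse (colour for group, marker for replicate number, and no point where a mouse had under 10 nuclei of the kind). S100a8 and S100a9 run nearly flat from cardiomyocytes to other myeloid nuclei and step up in the neutrophil-like nuclei of the 6 reperfused mice, Csf3r steps up in other myeloid nuclei, and Serpina3n peaks in fibroblasts.

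Within I/R replicate 2, S100a8 gave 29.7 UMIs per 100 cardiomyocyte nuclei, 31.1 per 100 endothelial nuclei, 27.9 per 100 fibroblast nuclei and 39.0 per 100 myeloid nuclei other than neutrophil-like ones, against 302 per 100 neutrophil-like nuclei. Per nucleus its level was thus much the same in cardiomyocytes, endothelial cells and fibroblasts. It was somewhat higher in other myeloid nuclei, and several times higher in neutrophil-like nuclei. S100a9 followed the same course, from 23.0 in cardiomyocytes to 29.9 in other myeloid nuclei and 313 in neutrophil-like nuclei. Retnlg lay between 5.00 and 5.66 per 100 nuclei in the 4 kinds and at 169 in neutrophil-like nuclei.
The UMIs of S100a8 per UMI of S100a9 in this mouse were 1.29 in cardiomyocytes (95% counting interval 1.08 to 1.55), 1.33 in endothelial cells, 1.20 in fibroblasts and 1.31 in other myeloid nuclei, and 0.966 (0.810 to 1.15) in neutrophil-like nuclei. Those of Retnlg per UMI of S100a8 were 0.182, 0.182, 0.181 and 0.128 in the same order, and 0.559 in neutrophil-like nuclei. In CPM the same S100a8 counts came to 53.4 CPM in cardiomyocytes (median 4428 UMIs per nucleus), 187 in endothelial cells (median 1254) and 114 in fibroblasts (median 1786), so no order of these types is read from either scale.
Saa3 gave 86.2 UMIs per 100 cardiomyocyte nuclei, 91.3 in endothelial cells and 95.2 in fibroblasts of I/R replicate 2, but 317 in other myeloid nuclei and 125 in neutrophil-like nuclei. The highest was the monocyte-like subcluster, at 392.4 per 100 nuclei. That subcluster made up 14.4% of the nuclei of this mouse and 1.92% of each other I/R heart. Saa3 per UMI of S100a8 was 2.91 in cardiomyocytes, 3.41 in fibroblasts and 8.11 in other myeloid nuclei, so the 2 genes were not in 1 ratio over the types.
Serpina3n in this mouse gave 26.4 UMIs per 100 cardiomyocyte nuclei, 14.7 in endothelial cells, 49.9 in fibroblasts and 11.5 in other myeloid nuclei. Hp took another order over the same types, with 13.03, 15.7, 21.6 and 36.3. In I/R replicate 3 Serpina3n was at 50.9 per 100 fibroblast nuclei, as in replicate 2, while S100a8 was at 3.88 there and 27.9 in replicate 2.

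Depth differed between nuclei, so shares of nuclei with a UMI were also read after thinning to 1000 UMIs, without the nuclei below that depth. In cardiomyocytes (median 4428 UMIs) Saa3 was then found in 19.5% of the nuclei of I/R replicate 2, against 0.122% and 0.123% in I/R replicates 1 and 3. In myeloid nuclei other than neutrophil-like ones of the same mouse (median 1808 UMIs) the share was 56.0%. With 3 mice against 3, a two-sided exact permutation test of such shares cannot go below p = 0.1, so none could be called.

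Neutrophil-like nuclei were counted beside these levels, since 4 of the genes are known from neutrophils. They numbered 0, 0 and 1 in the sham hearts, where a count of 0 allows a share of up to 0.0657% and 0.0509%, 21, 84 and 63 in the I/R hearts and 18, 23 and 17 in the SBP hearts. Their share was 0.00604% ± 0.0105 (SD, n = 3) in sham hearts, 1.02% ± 0.65 in I/R hearts and 0.364% ± 0.037 in SBP. The log2 ratio of I/R to sham was 5.96 (SE 0.65, adjusted p = 0.000267, limma) and that of SBP to sham 4.77 (adjusted p = 0.00126). With 1 such nucleus in the sham hearts, these ratios rest on the 0.5 nuclei added to each count.
The difference of SBP from I/R, a log2 ratio of -1.19 (SE 0.65), was not called (adjusted p = 0.689, limma; exact permutation p = 0.4), and I/R replicate 1 lay below all SBP mice. Without that mouse the ratio was -1.86 with an adjusted p of 0.0312, and without I/R replicate 2 it was -0.72 (adjusted p = 0.984).

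**Figure D3:**
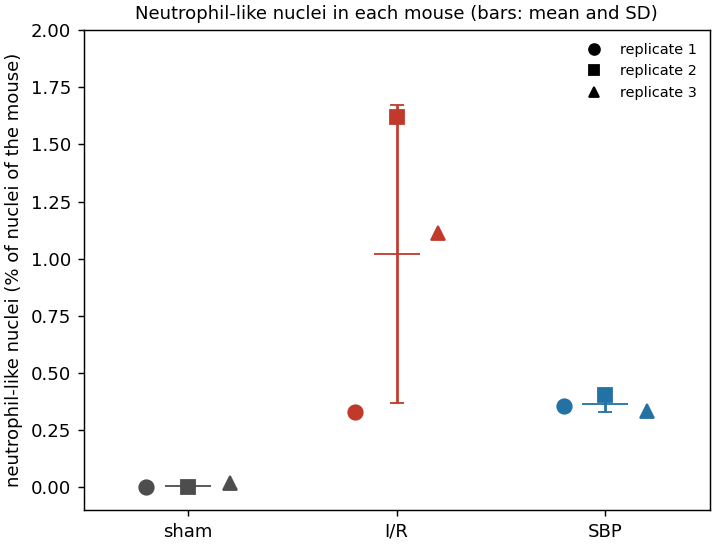
Neutrophil-like nuclei as a percentage of all nuclei of each mouse in sham, I/R and SBP hearts, with bars for the mean and SD (3 mice). The 3 SBP mice sit close together near 0.364%, and the I/R mice spread from 0.328% to 1.62%.

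These nuclei were named from 13 neutrophil markers that include none of the 7 genes. Il1r2, the decoy receptor for IL-1, gave 510 UMIs and Hdc, which makes histamine, gave 160, whereas the late granule gene Ltf gave 8 and Camp and Ly6g gave 1 each. Within each of the 6 reperfused mice, Csf3r, S100a8 and S100a9 had a UMI in a larger share of the neutrophil-like nuclei than of other myeloid nuclei. In I/R replicate 2 the shares were 92.9% and 36.3% for Csf3r, 75.0% and 26.7% for S100a8, 83.3% and 20.8% for S100a9 and 51.2% and 4.23% for Retnlg. In I/R replicate 3 they were 95.2% and 19.9% for Csf3r, 46.0% and 4.63% for S100a8, 55.6% and 5.15% for S100a9 and 12.7% and 0.214% for Retnlg. Over all mice the neutrophil-like nuclei were shallow (median 926 UMIs). Saa3 took no common order, with 58.3% of neutrophil-like and 72.4% of other myeloid nuclei in I/R replicate 2, 6.35% and 2.21% in I/R replicate 3, and no UMI in the neutrophil-like nuclei of I/R replicate 1 or of any SBP mouse.
The summed all-nuclei level of the 13 markers was 6.77 to 11.4 CPM in sham, 97.8, 491 and 118 in I/R and 55.4 to 119 in SBP, with at most 1 marker at 0 UMIs in a mouse. I/R replicate 2, the highest for S100a8, S100a9, Retnlg, Saa3 and Hp, was also the highest for these markers. The markers were not confined to neutrophil-like nuclei. Slfn4, with 861 UMIs in them, had a UMI in 69.6% of them and in 22.1% of other myeloid nuclei, and Il1r2 in 69.2% and 4.62%. The sum is thus no measure of neutrophil content. In cardiomyocytes the same sum was 1.57 to 4.24 CPM in sham and 24.0, 98.3 and 35.98 in I/R, and the part of these markers in the levels of the 7 genes was not tested.

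The second question was whether SBP altered these genes in the reperfused heart. None of the 7 was called between SBP and I/R, over all nuclei or in any of the 4 types, and limma called 0% of all genes in each of these comparisons. At an unadjusted p under 0.05 there were 2 over all nuclei (Csf3r and Hp), 2 in fibroblasts (Saa3 and Hp), 1 in myeloid cells (Csf3r) and 0 in cardiomyocytes and endothelial cells, where 4.48%, 3.52%, 3.92%, 2.15% and 5.18% of all genes passed. The number called was 0 in all 111 fits of these counts, the main fits included.
Over all nuclei the log2 difference of SBP from I/R was -1.10 for S100a8 (95% interval -2.83 to 0.62), -0.97 for S100a9 (-2.53 to 0.60), -2.87 for Saa3 (-6.20 to 0.47) and -1.11 for Serpina3n (-2.75 to 0.53). The intervals span several-fold differences in one direction and smaller ones in the other, so neither a large difference nor none could be shown with 3 mice per group. Without I/R replicate 2 the same differences were -0.08, -0.14, -0.64 and -0.57. For Retnlg the difference was -1.02 (interval -3.17 to 1.14), and without that mouse it turned to 0.28, neither being called.
For Csf3r the difference was -0.61 (interval -1.21 to -0.000897; adjusted p = 0.999, limma) over all nuclei and -0.58 in myeloid cells (interval -0.98 to -0.17). In fibroblasts it was 0.02 (interval -0.69 to 0.73). The first 2 values were -0.52 and -0.50 without I/R replicate 2. For Hp it was -1.63 over all nuclei (interval -3.11 to -0.15) and -2.18 in fibroblasts (interval -3.61 to -0.76; adjusted p = 0.999). Hp was the only gene of the 7 whose SBP and I/R mice did not overlap, in these 2 sums, as for 3.50% and 3.43% of the genes tested. Without I/R replicate 2 the Hp differences were -0.64 and -1.35.

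**Figure D4:**
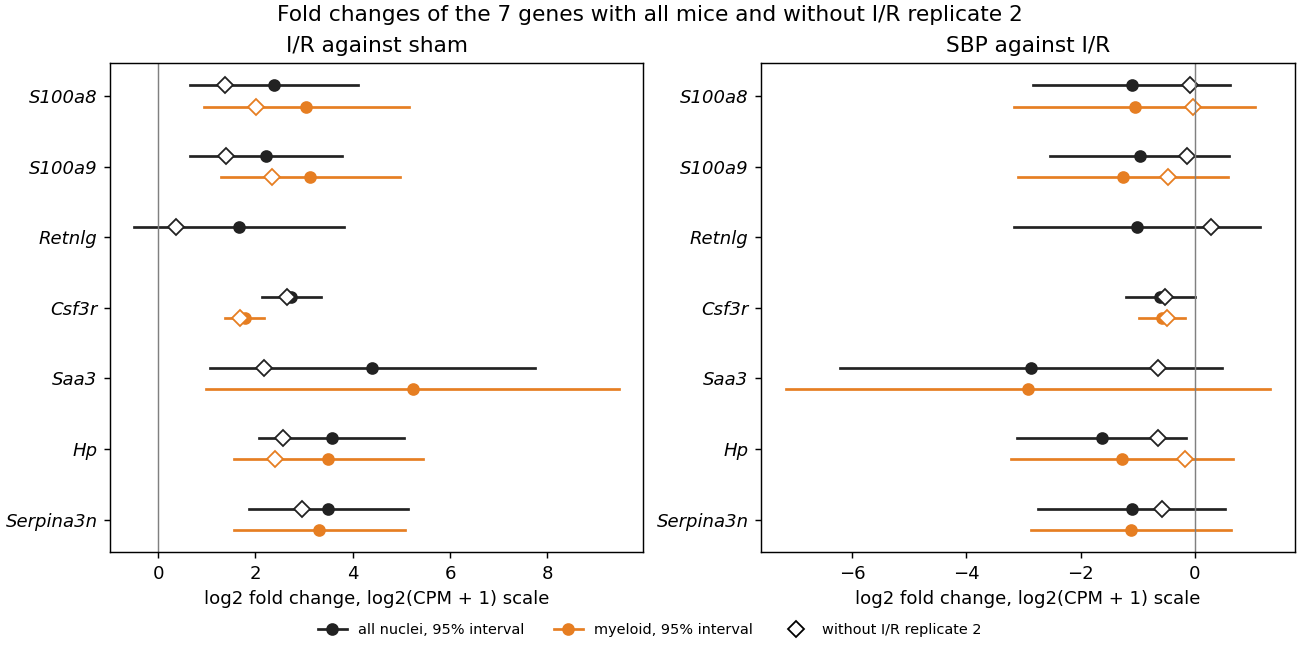
Log2 fold change of each gene over all nuclei (black) and in myeloid cells (orange), I/R against sham on the left and SBP against I/R on the right, with 95% intervals, and open diamonds for the value without I/R replicate 2 (absent where the gene then failed the filter). For Csf3r the diamond lies close to the full value, while for Saa3 the all-nuclei value moves from 4.40 to 2.17 and from -2.87 to -0.64.

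Against sham, the SBP mice had 1 gene called over all nuclei and in each of the 4 types, which was Csf3r in each case. Its levels per nucleus in cardiomyocytes, endothelial cells and fibroblasts of SBP mice were those given above, and the part of free RNA in these 3 calls was not tested either. The share of all genes called higher was 1.63% over all nuclei, 0.124% in cardiomyocytes, 0.549% in endothelial cells, 7.65% in myeloid cells and 3.70% in fibroblasts. Its log2 fold changes were 2.24 in cardiomyocytes (adjusted p = 0.0201), 2.72 in endothelial cells (0.0149), 1.20 in myeloid cells (0.00163) and 2.16 in fibroblasts (0.00272), all with limma. In myeloid cells without the neutrophil-like nuclei it was not called, and in cardiomyocytes it was not called without any 1 of the sham mice, SBP replicate 1 or SBP replicate 2. Without I/R replicate 1 or 2, which enter this comparison only through the spread, the scaling and the filter, the counts rose to at most 3. These comparisons share mice with the ones above.

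Other genes of the same pathways were read from lists. Of 14 genes of neutrophil granules and migration tested over all nuclei, 9 rose in I/R against sham and none fell, with a median log2 fold change of 1.81 beside -0.03 over all genes, of which 5.98% were called higher. In myeloid cells 10 of 13 rose (median 2.45, all genes 0.09, with 10.5% called higher). Without I/R replicate 2, where the share of all genes called was not counted, 7 of 14 and 8 of 11 rose. The medians were then 1.65 and 2.02, beside -0.03 and 0.09 over all genes. Among these genes, with all mice, Il1r2 rose in myeloid cells by 5.17 (adjusted p = 0.0130, limma). Padi4, which citrullinates histones, rose there by 3.72 (0.000281), and the collagenase Mmp8 by 3.18 (0.00744). The integrin chain Itgam, known from leukocytes, was called in the endothelial sum (3.46, adjusted p = 0.0156). Each of these 4 stayed called without I/R replicate 2. Of 13 acute phase genes 2 rose over all nuclei (median 0.83, against 5.98% of all genes called higher), and in myeloid cells the metallothionein Mt2 rose by 3.83 (adjusted p = 0.0306) and Lrg1 by 3.01 (0.00415). Serpina3g, of the same family as Serpina3n, rose by 1.505 in fibroblasts (0.0198). Over all nuclei none of 12 was called without I/R replicate 2, and of these 3 genes Lrg1 stayed called, while Mt2 (adjusted p = 0.0816) and Serpina3g (0.0546) did not.
Of 22 genes of IL-6, IL-1, STAT3 and C/EBP signalling, 9 rose over all nuclei (median 0.82, all genes -0.03, with 5.98% called higher). Il6 in fibroblasts was at 0 CPM in all sham mice, at 24.2, 99.8 and 20.7 in I/R and at 25.5, 8.57 and 16.7 in SBP (adjusted p = 0.000268 for I/R against sham, limma). In myeloid cells Osm, an IL-6 family cytokine, rose by 2.90 (adjusted p = 0.00407) and Socs3, the feedback inhibitor of STAT3, by 2.88 (0.0167). Il1rn, the antagonist of the IL-1 receptor, rose by 2.78 (0.00575). Over all nuclei the count was 6 of 22 without I/R replicate 2, and Il6, Osm, Socs3 and Il1rn stayed called in these types. None of the genes on these lists was called between SBP and I/R, with or without that mouse.

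The ligand of Csf3r, G-CSF (Csf3), was too scarce to test, with 1, 0 and 0 UMIs in the sham hearts, 5, 181 and 8 in the I/R hearts and 2, 0 and 2 in the SBP hearts. It was highest in I/R replicate 2, as were the neutrophil chemokine Cxcl2 (70, 1681 and 111 UMIs in I/R) and the formyl peptide receptor Fpr1 (7, 424 and 25), neither of which was called. Csf2rb, the shared receptor chain for GM-CSF, rose by 2.39 over all nuclei (adjusted p = 0.00380, limma) and the neutrophil chemokine Cxcl5 by 3.41 (adjusted p = 0.000244). In fibroblasts Cxcl5 was at 3.58, 7.92 and 8.37 CPM in sham, 75.0, 127 and 67.2 in I/R and 57.1, 76.9 and 49.4 in SBP. Among 14 ligands and receptors tested over all nuclei, 3 rose and none fell (median 0.86), where 5.98% of all genes were called higher and 5.39% lower. Of the receptors for S100a8 and S100a9, Tlr4 (log2 fold change 0.58, adjusted p = 0.176) and Ager (0.67, adjusted p = 0.0762) were not called over all nuclei. Tlr4 was called in myeloid cells (0.60, adjusted p = 0.0337) but not without I/R replicate 2 (adjusted p = 0.0739). Of the receptors for haptoglobin, Cd163 was not called over all nuclei (0.55, adjusted p = 0.357). Lrp1, which clears protease complexes with serpins, rose by 0.97 (adjusted p = 0.0124). Cd36 rose by 1.29 in endothelial cells (adjusted p = 0.0389), with 0.54 over all nuclei (0.375). Csf2, with 1, 11 and 1 UMIs in all over the sham, I/R and SBP hearts, could not be tested. Bsg (-0.16), Scarb1 (-0.22), Cxcl1 (0.75), Tlr2 (1.34) and Fpr2 (1.88) were not called over all nuclei, with adjusted p from 0.0799 to 0.760 (limma). Of the 4 listed granule proteases 2 were tested over all nuclei, and 1, Mmp9, rose there, as it did in myeloid cells by 2.45 (adjusted p = 0.00828). Csf2rb, Cxcl5, Lrp1 and Mmp9 stayed called over all nuclei without I/R replicate 2, and Cd36 in endothelial cells did not (adjusted p = 0.154).

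Over the 36 sums of 4 types and 9 mice, the genes whose log2(CPM + 1) was most like each of the 7 were read by Pearson correlation, as a description over sums that share libraries and depth. For S100a8 they were Mmp8 (r = 0.874), Il1r2 (0.859) and Socs3 (0.852), and for S100a9 the same genes led, with Socs3 at 0.876. For Csf3r they were Ccl6 (0.961), Ccr1 (0.958) and Sirpb1b (0.956), and for Hp Mmp8 (0.899), Il1r2 (0.893) and Slfn4 (0.878). Saa3 was most like Lcn2 (0.852), Mmp8 and Cxcl3, and Retnlg most like Cxcl2 (0.830), Cxcl3 and Fpr2. Serpina3n had other neighbours, Mt2 (0.907), Gpx3 (0.887) and Lox (0.887). Without the 4 sums of I/R replicate 2, r over the other 32 sums lay between 0.795 and 0.959 for the genes named beside S100a8, S100a9, Csf3r, Hp and Serpina3n, and was lower for those beside Saa3 (0.667 to 0.789) and Retnlg (0.514 to 0.721).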

How the data were processed

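Nuclei of frozen hearts were run on 10x 3' v3 chemistry, 1 library per mouse. The study's methods describe fastp trimming, Cell Ranger alignment to mm10, down-sampling of reads between libraries, removal of nuclei with 200 genes or fewer or with 10% or more mitochondrial UMIs, removal of mitochondrial genes, and Seurat normalization. The submitters' processing notes name Cell Ranger 4.0, Seurat 3.2.0 and GRCm38, and versions differ from those in the methods. The deposited data hold 49171 nuclei, fewer than the study reports, and none had under 405 genes or 466 UMIs. Shallower nuclei, if there were any, are therefore not in the counts of neutrophil-like nuclei. The authors deposited a natural log of each gene in each nucleus, ln(1 + 10000 × UMIs / total UMIs). Undoing the log and taking the smallest value of a nucleus as 1 UMI gave numbers within 0.1 of whole for at least 99.99936% of values.

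Of 49171 nuclei, 85 marked by Scrublet in Scanpy 1.11.5 were removed. So few marked nuclei mean that the caller may not have worked, and doublets may remain. Across the mice, 290 barcodes occurred in 2 libraries each (580 nuclei). Nuclei were clustered (2000 variable genes without the 7 genes, 30 principal components, 20 neighbours, Leiden resolution 0.3) and named from markers. Names rebuilt here may differ from the study's. UMIs were summed per mouse and cell type, scaled with TMM factors computed in R and tested with limma 3.58.1 (trend, robust, R 4.3.3) over 9 mice in 3 groups on log2(CPM + 1), which understates changes of low genes. A gene had to reach, in 3 mice, the CPM that 10 UMIs make in the median library, and 15 UMIs in all, and a mouse 20 nuclei of the type. The test recovered 96% of 200 genes simulated with a log2 change of 2 over all nuclei (16066 genes tested). The simulated spread between mice was fixed in advance and the same for all genes. It is therefore no measure of power for genes as spread as S100a8 in I/R (mean 53.4 CPM, SD 66.3). Intervals on UMI shares cover counting error only. The planned tests used a log scale because the deposited unit was a log.

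The 7 genes, the gene lists and the tests were chosen with earlier results of these data known. From each list, up to 4 called genes with the largest fold change were named, with every ligand or receptor of the 7 genes. For each of the 7, the 3 genes with the highest correlation were named. Mice are taken as separate animals. Replicate numbers come from the sample titles only. Alternatives covered scaling, filter, pseudocount, mice in the fit, each mouse left out, a replicate block, the variance model, mean log values, doublets, typing by marker score and neutrophil-like nuclei.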

Additional observations from a re-analysis of the deposited data

Results flagged for a closer look

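Of 33 differences in the I/R effect, tested over the genes and the pairs of cell types, 2 were called, both for S100a9. Its I/R effect was smaller in endothelial than in myeloid cells by a log2 value of -1.28, with effects of 1.85 and 3.12 (3.25% of all genes called). It was smaller in fibroblasts than in myeloid cells by -1.52, with effects of 1.61 and 3.12 (7.10% of all genes called). In myeloid cells the neutrophil-like nuclei, which held S100a9 UMIs in 58.6% of nuclei, were part of the sum, and the effect there was 2.30 without them. Without I/R replicate 2 neither difference was called.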

How the results depend on the processing

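Of 362 values of the 20 main results under other settings, 300 equalled or stayed near the main value. These include the counts for SBP against I/R, which were 0 in every fit and so could not show whether a call was stable. Of 1838 single fold changes, 1733 stayed on their side of the threshold, 62 lost and 43 gained a call, and 0 changed sign while called. For I/R against sham the number of the 7 genes called was 3, 1, 3, 3 and 4 over all nuclei, cardiomyocytes, endothelial cells, fibroblasts and myeloid cells. Means of the deposited log values, called on the adjusted p alone, gave 1, 0, 1, 1 and 1. A pseudocount of 0.25 or typing by marker scores gave 3 in cardiomyocytes, and a pseudocount of 5 or no filter gave 1 in endothelial cells. Fitting only the 6 mice compared gave 1 in myeloid cells. For SBP against sham the number was 1 in each, against 4, 2, 3, 3 and 4 with only the 6 mice compared. It was 0 over all nuclei, cardiomyocytes, fibroblasts and myeloid cells with mean log values, 0 in cardiomyocytes with a pseudocount of 5, and in myeloid cells 2 with marker scores and 0 without neutrophil-like nuclei. The 2 differences between cell types became 0 without TMM scaling. The cause of these changes was not tested.

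With each mouse left out in turn, the number called for I/R against sham ranged from 1 to 6 over all nuclei, 0 to 3 in cardiomyocytes, 1 to 3 in endothelial cells, 1 to 6 in myeloid cells and 2 to 4 in fibroblasts, lowest without a sham mouse or I/R replicate 2 in most and highest without I/R replicate 1 in all 5. For SBP against sham it ranged from 1 to 2, 0 to 2, 1 to 2, 1 to 3 and 1 to 2 in the same order, and for the differences between types from 0 to 4. The log2 ratio of neutrophil-like nuclei ranged from 5.49 to 6.63 for I/R against sham, -1.86 to -0.72 for SBP against I/R and 4.43 to 5.27 for SBP against sham.

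Deviations of mice with the same replicate number correlated between -0.40 and 0.30. All 3 pairs were over 0.1 (0.126 to 0.134) in 1 of 15 comparisons, SBP against sham in fibroblasts, so the numbers were not taken to pair the mice. The block left the count there at 1. With the replicate block, the number called for I/R against sham was 3 over all nuclei, 2 in cardiomyocytes, 1 in endothelial cells, 3 in myeloid cells and 2 in fibroblasts, and the counts for SBP against I/R and SBP against sham did not move.

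Depth limits Retnlg, which had 2 to 65 UMIs in 8 of 9 hearts, and Saa3 in sham hearts, which had 0 to 4 UMIs.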
